A study of Mus musculus with 69 samples.

Results

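Hippocampal RNA of mice that both lacked Cdh13 and had been separated from the dam as pups was compared with that of mice with neither, at postnatal day 22 (P22). The separated knockout group held 10 libraries and the control wildtype group 8, together 18 of the 69 libraries of the series, each from 1 animal. Libraries were chosen by the genotype, rearing and age in their labels and by no measured value. Separated knockout pups lacked Cdh13 and were taken from the dam for 3 h on each day from P1 to P14. Control wildtype pups had intact Cdh13 and came from litters that were handled but not separated. All animals were males, killed at weaning on P22, and came from 2 rounds of breeding. Cohort 1 gave 2 separated knockout and 4 control wildtype animals, and cohort 2 gave 8 separated knockout and 4 control wildtype animals. The other libraries of this age came from 9 control knockout animals (handled, lacking Cdh13) and 11 separated wildtype animals, and they were used to estimate the spread and to set single changes beside the joint one. The labels used here name neither the knockout allele nor the litter of an animal, and they describe no restriction of the knockout to a cell type.

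Cdh13 encodes T-cadherin, an unusual cadherin that is held at the cell surface by a lipid anchor and has no domain inside the cell. It binds adiponectin, a hormone of fat tissue, and in the hippocampus it is known from neurons and their inhibitory synapses. Separation from the dam during the first weeks of life is a common rodent model of early stress. The hippocampus carries many receptors for glucocorticoids, the hormones of the stress response, and its synapses and myelin are still being built at that age.

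Counts were analysed for 9930 protein-coding genes, all on chromosomes 1 to 8. The table as held ends on chromosome 8, and genes of that chromosome beyond its end are not covered. Cdh13 is not among the held genes and was not analysed here, and no check of the genotype labels by its level was made. Totals over the held genes ran from 11.8 to 14.6 M counts in separated knockout and from 12.1 to 13.7 M counts in control wildtype libraries. Markers of dentate gyrus and CA fields were abundant in the P22 libraries, as the tissue label says: Prox1, a transcription factor of granule cells, had a mean log2 level of 8.33 and Wfs1, a marker of CA1 neurons, of 8.41, in counts per M counts of the held genes (CPM, where M stands for mega). The first principal component of the P22 libraries held 15.8% of the variance and its leading genes (Tmem72, F5, Kcnj13 and Slc4a5 among them) are known from choroid plexus, the tissue beside the hippocampus that makes cerebrospinal fluid. Separated knockout libraries lay between -17.9 and 12 on it and control wildtype libraries between -9.04 and 7.4, so the groups overlapped. In bulk tissue a lower level per cell and fewer cells of a type cannot be told apart.

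No gene was called as different between separated knockout and control wildtype animals at P22. By edgeR's quasi-likelihood test with cohort as covariate, 0 of 7036 genes (0%) had a Benjamini-Hochberg adjusted p under 0.05, and the smallest adjusted p was 0.947. An unadjusted p under 0.05 was found for 244 genes (3.47%), where 352 are expected without any difference. Of these, 119 (1.69%) had higher values in separated knockout and 125 (1.78%) had lower values. DESeq2 also called 0 genes, with 244 at an unadjusted p under 0.05, and limma-voom called 0, with 237. There was no gene (0%) for which the separated knockout libraries all lay above or all lay below the control wildtype libraries. The typical difference was small, with a median size of 0.054 on the log2 scale beside a median standard error (SE) of 0.072. Positive and negative differences were nearly balanced, 3669 (52.1%) and 3367 (47.9%) genes, and the median log2 fold change was 0.005. Single libraries moved the number of genes at an unadjusted p under 0.05. It was 534 without separated knockout C2-36 (animal 36 of cohort 2), 389 without separated knockout C2-63, 153 without separated knockout C2-23 and 132 without control wildtype C1-56, with 0 called each time.

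**Figure D1:**
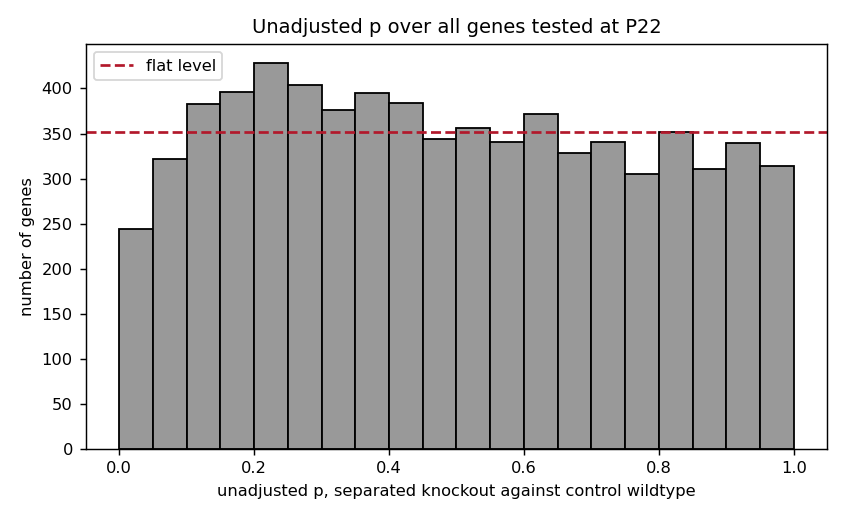
Unadjusted p of separated knockout against control wildtype for the 7036 genes tested at P22, in 20 bins of equal width (x axis: p, y axis: number of genes). The lowest bin, at the smallest p, holds 244 genes and lies under the dashed flat level of 351.8.

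The width of the 95% intervals shows which sizes of difference the data limit. For 6205 genes (88.2%) the whole interval of the log2 fold change lay within 0.5 on either side of 0, and for 6930 (98.5%) within 1. Precision followed the level. Among 3357 genes with a mean log2 CPM over 6 the share within 0.5 was 99.4%, among 2351 genes between 3 and 6 it was 95.2%, among 1155 genes between 0 and 3 it was 54%, and among 173 genes under 0 it was 3.47%. For genes of low level the data therefore set no narrow limit. These intervals take animals as independent, and they are too narrow if littermates resemble each other, since separation was applied to whole litters.

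The 10 genes with the smallest p among those with lower values in separated knockout animals were Trpc4, Pde1a, Neb, Fgl2, Nostrin, Micalcl, Slit2, Lao1, Dchs2 and Zfp619. None passed, and each had an edgeR adjusted p of 0.947. Their log2 fold changes lay between -0.26 and -0.84. The 3 most abundant, Pde1a, Trpc4 and Slit2, all have known roles in neurons. Trpc4 encodes a cation channel that lets calcium in after receptors coupled to G proteins are activated (ENSMUSG00000027748.11, GRCm38 chromosome 3, 54156035 to 54318471). Its level was 118, 146 and 168 CPM (lowest, median and highest) in separated knockout animals, against 151, 173 and 222 CPM in control wildtype animals. All 10 separated knockout animals lay under the control wildtype median, and 7 of them under the lowest control wildtype animal. The log2 fold change was -0.26 ± 0.0737 (SE; 95% interval -0.41 to -0.12, unadjusted p = 0.000913 by edgeR, the smallest of all genes).

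Pde1a encodes a phosphodiesterase that breaks down cyclic nucleotides when calcium and calmodulin are bound (ENSMUSG00000059173.19, chromosome 2, 79834453 to 80129458). It had 329, 371 and 477 CPM in separated knockout animals, against 380, 471 and 520 CPM in control wildtype animals. The groups overlapped, with 6 separated knockout animals under the lowest control wildtype animal, and the log2 fold change was -0.27 ± 0.08. Slit2, a secreted ligand of Robo receptors that repels growing axons (ENSMUSG00000031558.15, chromosome 5, 47983138 to 48307733), had 90.6, 125 and 144 CPM in separated knockout animals and 120, 148 and 153 CPM in control wildtype animals. All 10 separated knockout animals lay under the control wildtype median, but only 3 under the lowest control wildtype animal, C2-85, which stood apart from the others of its group. The log2 fold change of Slit2 was -0.26 ± 0.0858, and -0.30 without that animal.

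Fgl2, a fibrinogen-like protein made by cells of the immune system, was low and its groups overlapped by a single animal (ENSMUSG00000039899.5, chromosome 5, 21372642 to 21378374). It had 3.66, 4.81 and 6.16 CPM in separated knockout animals and 5.67, 6.37 and 7.19 CPM in control wildtype animals. The 9 lowest of the 10 separated knockout animals lay under all control wildtype animals, and the log2 fold change was -0.42 ± 0.132. Zfp619, a zinc finger gene, had 7.32, 10.2 and 14.5 CPM in separated knockout animals, against 11.4, 12.7 and 13.4 CPM in control wildtype animals (log2 fold change -0.29). Here 8 separated knockout animals lay below and 1 above the whole range of the control wildtype animals. Nostrin, an adaptor that controls the traffic of endothelial nitric oxide synthase, had 6.46, 9.44 and 11.5 CPM in separated knockout animals and 8.6, 12.1 and 16.1 CPM in control wildtype animals (-0.42).

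The groups overlapped for the other 4 genes of this direction too. Dchs2, a very large member of the cadherin superfamily, had 6.73, 11.3 and 13 CPM in separated knockout animals, against 11.8, 12.8 and 18.9 CPM in control wildtype animals (log2 fold change -0.45 ± 0.15). Of its exon bases 12% lie under the antisense transcript Gm10710, and the use of strand in the counting is not given in the sources used here. Neb, the gene of the muscle filament protein nebulin, had 6.04, 8.74 and 10.7 CPM in separated knockout animals and 7.99, 10.2 and 14.9 CPM in control wildtype animals (-0.38). Micalcl had 7.13, 8.58 and 10.6 CPM in separated knockout animals, against 8.66, 10.1 and 11.8 CPM in control wildtype animals (-0.27). Lao1, an L-amino acid oxidase, was the gene with the largest fitted difference of the 10, -0.84 ± 0.283, and also the lowest, with 0.496, 0.941 and 1.44 CPM in separated knockout animals and 0.56, 1.82 and 2.25 CPM in control wildtype animals. All 10 separated knockout animals had less Lao1 than the control wildtype median, yet the lowest animals of the groups lay next to each other.

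On the higher side the 10 genes with the smallest p were G6pd2, Ass1, Card9, Lgi4, Cyb561d1, Lrtm2, Slc46a3, Pmvk, 2810459M11Rik and Grhpr, with log2 fold changes from 0.13 to 0.69 and the same adjusted p of 0.947. Several of them encode enzymes. Ass1, which encodes argininosuccinate synthase, an enzyme of arginine synthesis (ENSMUSG00000076441.9, chromosome 2, 31470207 to 31520672), had 34, 39.4 and 51.1 CPM in separated knockout animals and 29.3, 33.9 and 37.8 CPM in control wildtype animals. All 10 separated knockout animals lay above the control wildtype median and 6 above the highest control wildtype animal (log2 fold change 0.26 ± 0.0801). Pmvk, the phosphomevalonate kinase of cholesterol synthesis, had 79, 88.2 and 101 CPM in separated knockout animals, against 71.6, 82.7 and 85.3 CPM in control wildtype animals (0.15 ± 0.0501). Grhpr, a reductase that removes glyoxylate, had 41.2, 48.6 and 57.6 CPM in separated knockout animals and 37.3, 41.9 and 48.4 CPM in control wildtype animals (0.20 ± 0.0704).

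G6pd2 had the largest fitted difference of this direction. It is a copy of the X-linked gene of glucose-6-phosphate dehydrogenase, so reads may have been shared between the copies and its level is uncertain. It had 0.679, 1.11 and 1.57 CPM in separated knockout animals, against 0.499, 0.728 and 0.919 CPM in control wildtype animals, with 9 of 10 separated knockout animals above all control wildtype animals (0.69 ± 0.205). Card9, an adaptor that passes signals of innate immune receptors to NF-kB, was low too, with 3.8, 4.98 and 6.16 CPM in separated knockout animals and 2.92, 3.82 and 4.9 CPM in control wildtype animals (0.38 ± 0.117). For Card9, 5 of the 10 separated knockout animals lay above the whole control wildtype range.

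Among the remaining genes of higher values, Lrtm2, which encodes a membrane protein with leucine-rich repeats, was the most abundant. It had 102, 120 and 144 CPM in separated knockout animals, against 93, 107 and 120 CPM in control wildtype animals (0.18 ± 0.0607). Lgi4, a secreted glial protein needed for the myelination of peripheral nerves, had 69.8, 81.8 and 92.8 CPM in separated knockout animals and 64.9, 72.9 and 83 CPM in control wildtype animals (0.18 ± 0.0573). Lgi4 shares 44.9% of its exon bases with Fxyd3 on the opposite strand, so reads of these 2 genes may not be told apart. Slc46a3, a transporter of the lysosome, had 16.4, 17.8 and 19.5 CPM in separated knockout animals and 14.1, 15.7 and 17.5 CPM in control wildtype animals, with all 10 separated knockout animals above the control wildtype median (0.18). Cyb561d1 had 48.4, 52.2 and 57.5 CPM in separated knockout animals, against 46, 48.9 and 51.4 CPM in control wildtype animals, the smallest of these differences (0.13 ± 0.0414). 2810459M11Rik had 30.2, 32.9 and 40 CPM in separated knockout animals and 22.8, 28.8 and 33.7 CPM in control wildtype animals (0.25).

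**Figure D2:**
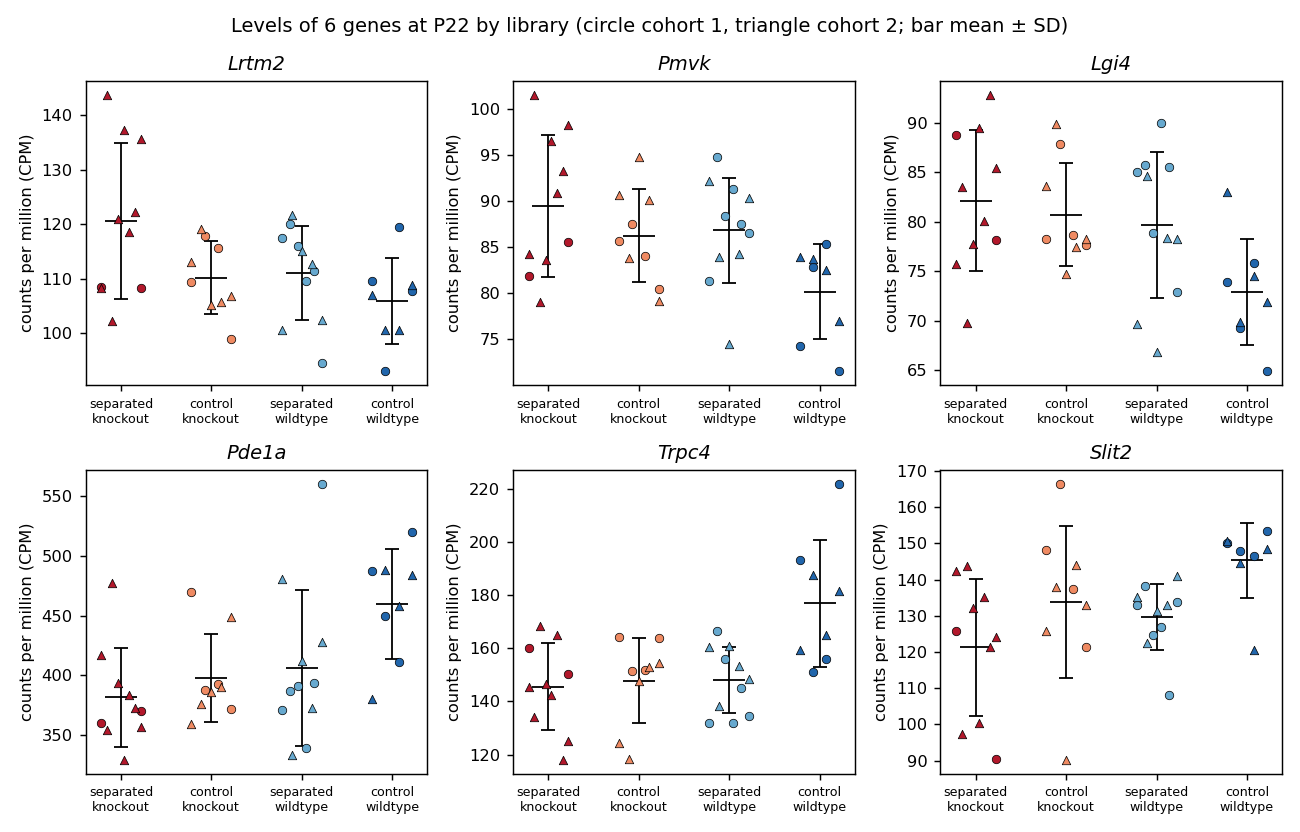
Levels of 6 genes in each P22 library (y axis: CPM, linear and not from 0), the 3 most abundant of the 10 genes of higher values (top) and of the 10 genes of lower values (bottom), with separated knockout at the left and control wildtype at the right. Circles are cohort 1, triangles cohort 2, and bars mean ± SD; for Trpc4 the separated knockout libraries run from 118 to 168 CPM and the control wildtype libraries from 151 to 222 CPM.

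**Figure D3:**
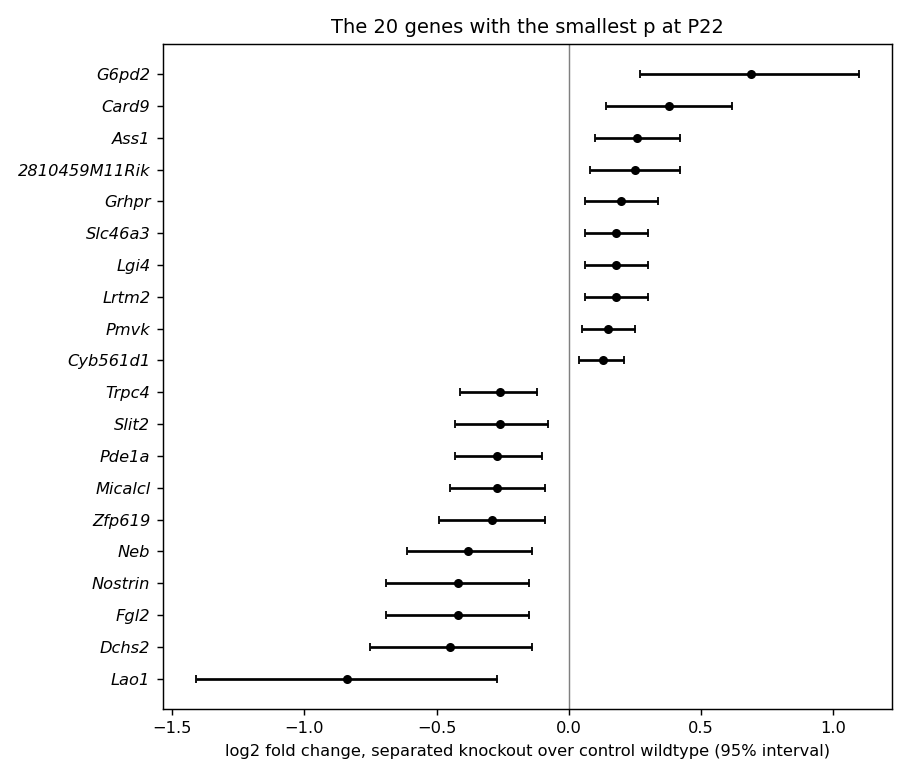
Log2 fold change of separated knockout over control wildtype (x axis) with its 95% interval for the 20 genes with the smallest p, 10 in each direction. Estimates run from -0.84 for Lao1 to 0.69 for G6pd2, and the intervals are not adjusted for the 7036 genes tested.

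Whether the joint difference equals the sum of its parts was asked with the 4 groups of this age. For all 20 genes, the change with knockout alone and the change with separation alone had the sign of the joint change. These comparisons share the control wildtype animals, and choosing genes by their difference from those animals favours this layout, so the values, interactions included, are given side by side as a description. Trpc4 averaged 146 ± 16.5 CPM in separated knockout animals (SD, n = 10), 148 ± 16 CPM in control knockout animals (n = 9) and 148 ± 12.5 CPM in separated wildtype animals (n = 11), against 177 ± 23.9 CPM in control wildtype animals (n = 8). The log2 change of Trpc4 was -0.26 for both together, -0.26 for knockout alone and -0.26 for separation alone, and its interaction, the departure from additivity, was 0.25. Cyb561d1 had the same layout in the other direction, with means of 53 CPM in separated knockout, 53 CPM in control knockout and 53.2 CPM in separated wildtype animals, against 48.8 CPM in control wildtype animals (interaction -0.12). In both genes the means of 3 groups lay together and the control wildtype mean lay apart, while single animals of the groups overlapped. Fgl2 followed with means of 4.87, 4.81 and 4.96 CPM in separated knockout, control knockout and separated wildtype animals, against 6.37 CPM in control wildtype animals, and its interaction was 0.34.

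Other genes were stepwise. Slit2 averaged 121 ± 19 CPM in separated knockout animals, 134 ± 21 CPM in control knockout animals and 130 ± 9.1 CPM in separated wildtype animals, against 145 ± 10.4 CPM in control wildtype animals, and its interaction was 0.02. Dchs2 averaged 10.3 ± 2.6, 12 ± 2.78 and 12.2 ± 1.89 CPM in the same 3 groups, against 14.1 ± 2.88 CPM in control wildtype animals, with an interaction of -0.01. Neb had 8.48, 9.86 and 9.95 CPM, against 10.9 CPM in control wildtype animals, and an interaction of -0.10. For these 3 genes each single condition lay between the ends. For G6pd2 and Nostrin the means of both separated groups lay on 1 side of those of both control groups. G6pd2 averaged 1.13 CPM in separated knockout and 1.15 CPM in separated wildtype animals, against 0.852 CPM in control knockout and 0.721 CPM in control wildtype animals. Nostrin averaged 9.13 CPM in separated knockout and 9.91 CPM in separated wildtype animals, against 11.3 CPM in control knockout and 12.1 CPM in control wildtype animals.

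Over all genes the interaction called 0 of 7036 (0%) by edgeR, with 596 (8.47%) at an unadjusted p under 0.05, and DESeq2 and limma-voom called 0 with 599 and 617. With the choroid plexus score as covariate it called 0, with 956 at an unadjusted p under 0.05 and a smallest adjusted p of 0.146 by edgeR. Among the genes named for it, Naaa and Usp13 had nearly the same level in separated knockout and control wildtype animals, and both single conditions on 1 side. Trh, the gene of thyrotropin-releasing hormone, was also named, with an interaction of 2.57 ± 0.673. Its joint log2 change was -0.54, and control wildtype C1-32 lay far above its group. Naaa, an amidase of the lysosome that cleaves fatty acid ethanolamides, averaged 74.1 ± 4.13 CPM in separated knockout animals, 79.5 ± 5.11 CPM in control knockout animals and 79.7 ± 4.3 CPM in separated wildtype animals, against 72.4 ± 4.19 CPM in control wildtype animals. Its joint log2 change was 0.02 and its interaction -0.25 ± 0.0576 (adjusted p = 0.295). For Usp13, a deubiquitinase, the joint change was -0.02, with -0.16 for knockout alone and -0.18 for separation alone (interaction 0.31, adjusted p = 0.295). The rule that named these genes chose them by the interaction, so the layout is a description. None of the single comparisons of the 4 groups called a gene either (0% in each). An unadjusted p under 0.05 was found for 143 genes (2.03%) between separated knockout and separated wildtype, for 334 (4.75%) between separated knockout and control knockout, for 851 (12.1%) between control knockout and control wildtype, and for 463 (6.58%) between separated and control wildtype animals.

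Gene lists were read by counts and medians beside those of all genes, of which 52.1% were positive and 47.9% negative. No list of the 34 held a called gene, and 29 had a median log2 fold change within 0.1 of 0. The 5 beyond it were thalamus and habenula (0.35), myelin (0.18), ependyma (-0.12), choroid plexus (-0.19) and glucocorticoid-induced genes (-0.24).

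**Figure D4:**
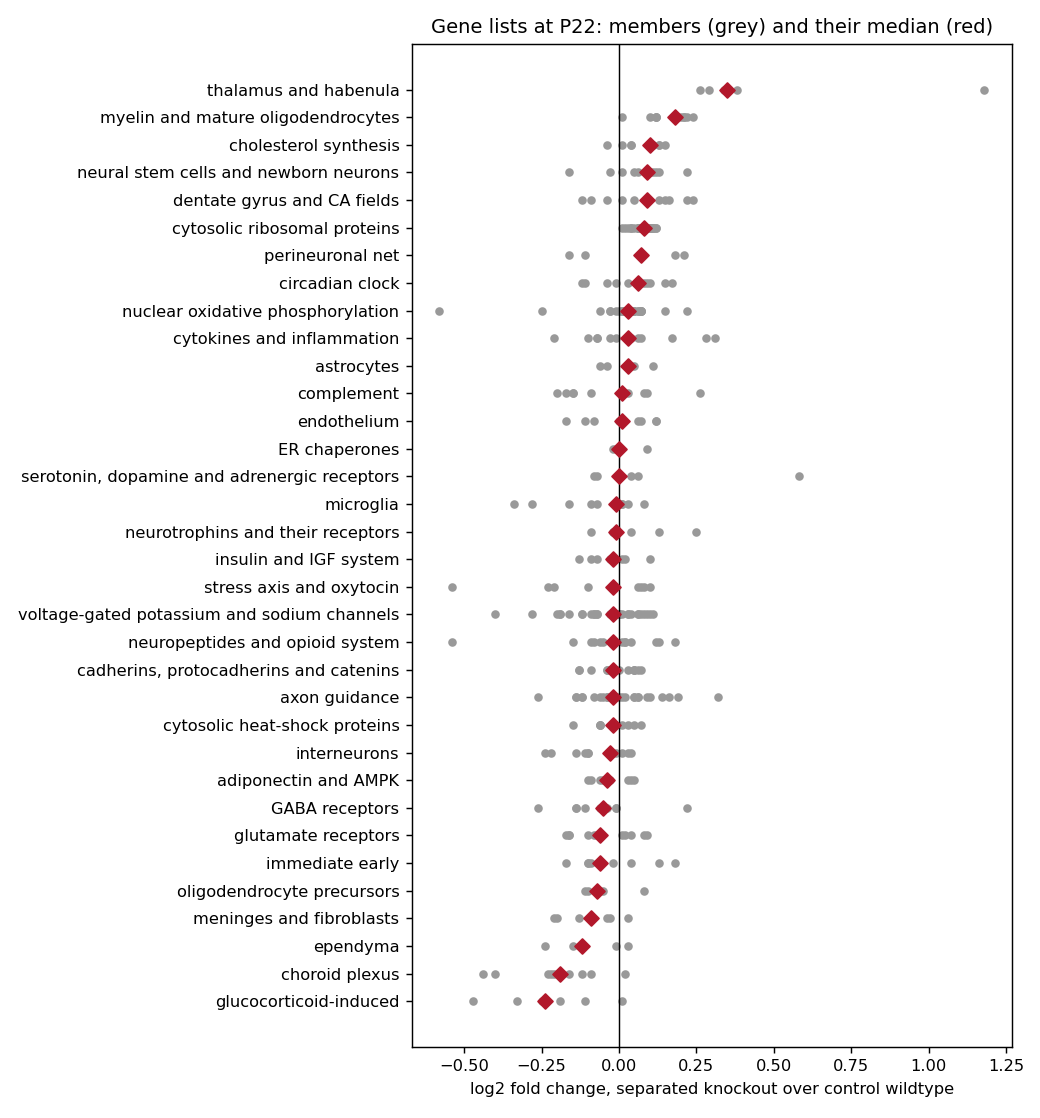
Log2 fold change of separated knockout over control wildtype at P22 (x axis) for the tested members (grey) of each of the 34 lists, with the list's median (red diamond). Medians run from -0.24 for glucocorticoid-induced genes to 0.35 for thalamus and habenula, and no member was called.

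The tested genes of adiponectin signalling and of cadherin adhesion, only a part of those listed, lay close to 0. Adipor1, a receptor of adiponectin, had 169, 194 and 205 CPM in separated knockout animals, against 176, 188 and 196 CPM in control wildtype animals, and its log2 fold change was 0.03 with a 95% interval of -0.05 to 0.10. Adipor2, the second adiponectin receptor, had 140, 152 and 182 CPM in separated knockout animals and 129, 157 and 183 CPM in control wildtype animals (-0.03, interval -0.16 to 0.11). Prkaa2, a catalytic subunit of the kinase AMPK that acts downstream of them, differed by -0.05 (interval -0.21 to 0.11). Of 16 listed genes of adiponectin and AMPK signalling 8 were tested, 3 positive and 5 negative, and 0 passed. Cadherins, protocadherins and catenins were likewise mixed, with 7 of 16 positive and 9 negative, between -0.13 and 0.07. These 16 were the tested genes of 46 listed. Dchs2, the cadherin superfamily gene of lower values described above, was not on this list and lay below that range. Ctnna2, the catenin that ties cadherins to actin in neurons, had 330, 345 and 381 CPM in separated knockout animals, against 337, 348 and 367 CPM in control wildtype animals, and its interval of -0.07 to 0.07 was among the narrowest. Cdh4, the cadherin of retina and brain also called R-cadherin, differed by -0.09 ± 0.136.

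Among receptors of inhibition 1 gene of higher and 1 of lower values had an edgeR unadjusted p under 0.05, and among receptors of excitation 0. Over all genes the share was 3.47%, and no receptor gene was called. Of 10 GABA receptor genes 9 were negative and 1 positive, with a median of -0.05. Gabrd, the delta subunit of receptors outside synapses, was the positive gene, with 50.8, 62.4 and 77.7 CPM in separated knockout animals and 45.9, 52.2 and 61.8 CPM in control wildtype animals (0.22 ± 0.0894, edgeR unadjusted p = 0.0193). Of the separated knockout animals 5 exceeded every control wildtype animal. Gabra2, an alpha subunit at synapses, had 289, 333 and 473 CPM in separated knockout animals, against 355, 435 and 531 CPM in control wildtype animals (-0.26 ± 0.121, unadjusted p = 0.0404), with 6 separated knockout animals under all control wildtype animals. Glutamate receptors were 5 positive and 7 negative of 12. Gria2, the AMPA receptor subunit that limits calcium entry, had 1140, 1520 and 2040 CPM in separated knockout animals, against 1530, 1750 and 2210 CPM in control wildtype animals (-0.17 ± 0.107). Grin1, the subunit shared by NMDA receptors, had 1120, 1330 and 1490 CPM in separated knockout animals and 1140, 1250 and 1370 CPM in control wildtype animals (0.09 ± 0.0654). Interneuron genes were negative in 10 of 13. The lowest p among them was that of Dlx5, a transcription factor of inhibitory neurons, with 6.11, 6.98 and 8.04 CPM in separated knockout animals and 6.42, 7.55 and 11.6 CPM in control wildtype animals (-0.22, unadjusted p = 0.0314). The highest Dlx5 level belonged to control wildtype C1-32 alone. Among 29 potassium and sodium channel genes 12 were positive and 17 negative, and Kcnd3, a channel of fast transient potassium current, had the smallest p (-0.12 ± 0.0545).

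Genes of axon guidance were 12 positive and 16 negative of 28, Slit2 being the lowest of them. Epha8, an ephrin receptor, was the highest, with 10, 17.5 and 24.5 CPM in separated knockout animals and 9.62, 15.8 and 16.7 CPM in control wildtype animals (0.32 ± 0.138, edgeR unadjusted p = 0.0247). Ptprz1, a receptor phosphatase of glia that binds the matrix around neurons, had 382, 533 and 698 CPM in separated knockout animals, against 530, 609 and 657 CPM in control wildtype animals (-0.16 ± 0.0761, unadjusted p = 0.0446). For both genes the separated knockout animals covered the wider range.

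Genes that glucocorticoids induce had lower values, on the whole, without a call. Of 7 tested genes 6 were negative, with a median of -0.24, and 16 of the 23 listed genes were not tested. For knockout alone the median was -0.1 with 1 of 7 positive, and for separation alone -0.17 with 0 of 7 positive. Both share the control wildtype animals with the joint comparison. Mertk, a receptor of phagocytosis, had 106, 124 and 142 CPM in separated knockout animals and 110, 147 and 193 CPM in control wildtype animals. All 10 separated knockout animals lay under the control wildtype median and 2 under the whole group (-0.24 ± 0.099, edgeR unadjusted p = 0.0227). Hif3a, an inhibitor of the response to hypoxia, had 13.4, 24.6 and 35.7 CPM in separated knockout animals, against 20.5, 35.5 and 50.3 CPM in control wildtype animals (-0.47 ± 0.236, interval -0.95 to 0). Pdk4, a kinase that slows the use of glucose, differed by -0.19 and Sult1a1, a sulfotransferase, by -0.33. Summed over the list, levels were 276, 305 and 340 CPM in separated knockout animals, against 274, 343 and 439 CPM in control wildtype animals, so the lowest libraries of the groups were alike and the highest were not. The chaperones of the endoplasmic reticulum that were tested, 4 of 21 listed, did not share the direction. Hspa5, the main one, had 481, 613 and 905 CPM in separated knockout animals and 477, 647 and 752 CPM in control wildtype animals (-0.01 ± 0.116), and of 4 tested genes 2 were positive and 2 negative.

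Markers of tissue next to the hippocampus differed more between animals than the lists of neuronal function did. Thalamus and habenula markers were positive in 6 of 6 tested genes, and the other 9 of the 15 listed genes were not tested. Lef1, a transcription factor of the Wnt pathway, had 9.84, 13.5 and 17.9 CPM in separated knockout animals and 8.3, 11.6 and 14.4 CPM in control wildtype animals (0.29 ± 0.12, edgeR unadjusted p = 0.0194). Slc17a6, the vesicular glutamate transporter of thalamic neurons, had 26.2, 71 and 112 CPM in separated knockout animals, against 37, 54 and 71.1 CPM in control wildtype animals (0.34 ± 0.219). Gbx2, a homeobox gene of the thalamus, was at 0 in the lowest library of each group, with a median of 0.54 CPM in separated knockout and 0.501 CPM in control wildtype animals, and Synpo2 differed by 0.35 (unadjusted p = 0.0348). The summed list was 63, 113 and 177 CPM in separated knockout animals, against 62.7, 91.7 and 137 CPM in control wildtype animals. With the score of this list as a further covariate, a setting chosen after the data were seen, the log2 fold change of Trpc4 was -0.19, that of Pde1a -0.20, that of Slit2 -0.22 and that of Ass1 0.21. The part of this tissue in the list medians was not tested.

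Choroid plexus genes were 1 positive and 10 negative of 11, with a median of -0.19 and wide errors. F5, which encodes coagulation factor V and is strongly expressed in choroid plexus, had 2.88, 15.3 and 59.9 CPM in separated knockout animals and 8.07, 19.8 and 55.6 CPM in control wildtype animals (-0.40 ± 0.47). Summed levels were 175, 287 and 674 CPM in separated knockout animals, against 221, 297 and 534 CPM in control wildtype animals. The direction rested on a few libraries. Without control wildtype C1-32 the median was 0.12, with 8 of 11 genes positive, and without separated knockout C2-12 it was -0.50. The list's median was 0.77 for knockout alone and 0.24 for separation alone, so that the joint value lay under both. Separated knockout C2-92 had the lowest choroid plexus score of the group, 2.17 log2 units under the median of the P22 libraries, and at the same time the highest thalamus and habenula score, 1.19 above the median. Ependymal genes, which mark the lining of the ventricles, had a median of -0.12 over 5 genes, and of 0.02 without control wildtype C1-32. It was 0.19 in cohort 1 alone, with 5 of 5 genes positive, and -0.25 in cohort 2 alone, with 5 of 5 negative. With the choroid plexus score as covariate, the log2 fold changes of Trpc4 (-0.27), Pde1a (-0.26), Slit2 (-0.25) and Ass1 (0.24) were about as large as without it.

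**Figure D5:**
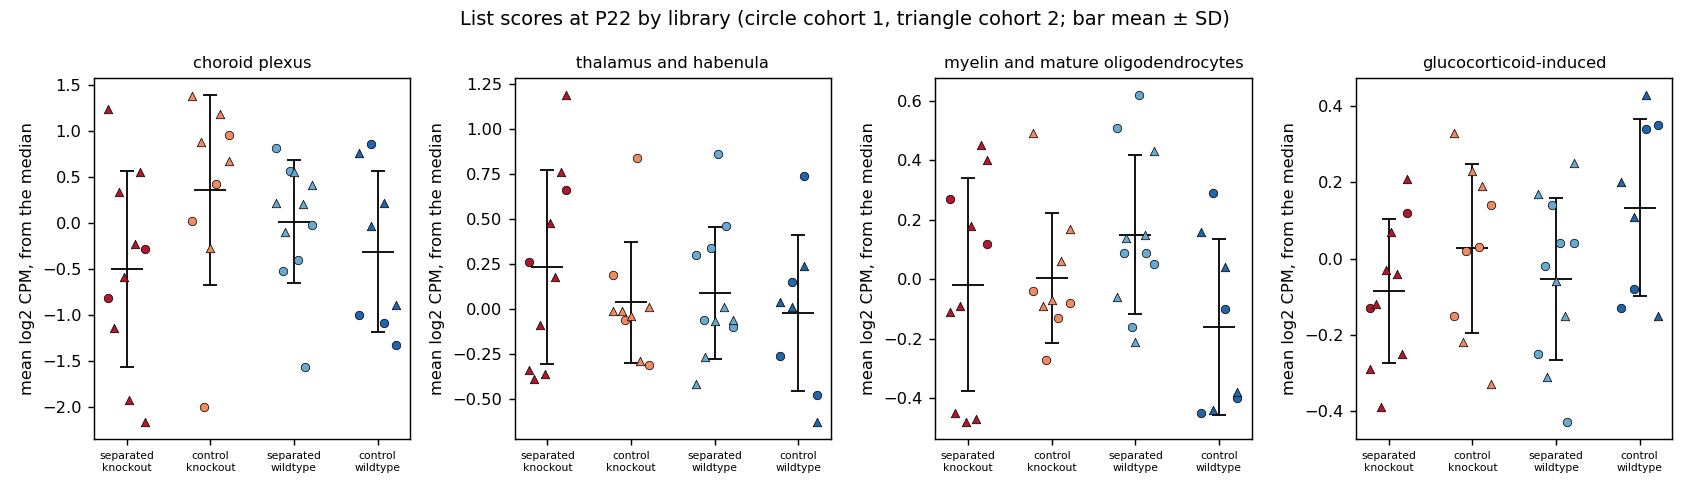
Scores of 4 gene lists in each P22 library (y axis: mean log2 CPM over the list, from the median of the P22 libraries), with separated knockout at the left and control wildtype at the right. Circles are cohort 1, triangles cohort 2, bars mean ± SD; choroid plexus scores run from -2.17 to 1.24 in separated knockout and from -1.33 to 0.86 in control wildtype libraries.

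Myelin genes were positive in 11 of 11, with a median of 0.18 and no gene at an unadjusted p under 0.05. The list's median was 0.14 for knockout alone and 0.32 for separation alone, with 11 of 11 genes positive in each. Against separated wildtype animals the separated knockout median was -0.15, with 0 of 11 positive. Against control knockout animals it was -0.01, with 5 of 11 positive. Mag, an adhesion molecule of the inner myelin layer, had 370, 649 and 960 CPM in separated knockout animals and 389, 509 and 819 CPM in control wildtype animals (0.24 ± 0.169). Separated knockout animals lay on both sides of the control wildtype range, 3 above it and 1 below. Gsn, an actin-severing protein of oligodendrocytes, differed by 0.22 ± 0.158 and Cldn11, the claudin of myelin, by 0.21 ± 0.153. The summed list was 2020, 2950 and 4100 CPM in separated knockout animals, against 2140, 2460 and 3460 CPM in control wildtype animals. Beside it, with the thalamus and habenula score as covariate, a setting added after seeing the data, the median of the myelin list was 0.02 with 6 of 11 genes positive. Cholesterol synthesis, on which myelin depends, was positive in 8 of 9 genes (median 0.10), Pmvk with the smallest p among them. Cytosolic ribosomal protein genes were positive in 35 of 35 at a median of only 0.08, beside 0.09 for knockout alone and 0.10 for separation alone. Rplp2, a protein of the ribosomal stalk, had 188, 237 and 292 CPM in separated knockout animals and 199, 223 and 233 CPM in control wildtype animals (0.11 ± 0.0658), so the separated knockout animals spread beyond the control wildtype range at both ends. Genes of such a complex vary together between libraries, so that 35 members of 1 sign are not 35 observations.

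Immune genes showed no common direction. Microglial markers were 5 positive and 7 negative of 12, with a median of -0.01. Inpp5d, a phosphatase that restrains microglial receptor signals, had 23.9, 26.6 and 30.7 CPM in separated knockout animals, against 28.5, 30.5 and 33.1 CPM in control wildtype animals, with 7 separated knockout animals under the whole control wildtype range (-0.16 ± 0.0611, edgeR unadjusted p = 0.0128). Subunits of complement C1q, also made by microglia, stayed near 0, with 0.08 for C1qa and 0.03 for C1qb. Serping1, the inhibitor of C1, had 16.1, 20.1 and 22.7 CPM in separated knockout animals and 12.1, 17.3 and 22.8 CPM in control wildtype animals (0.26 ± 0.108, unadjusted p = 0.0202). Il6ra, the receptor of interleukin 6, had 16, 18.6 and 21.6 CPM in separated knockout animals and 18, 21 and 25.5 CPM in control wildtype animals (-0.21 ± 0.0768, unadjusted p = 0.00847). Of these 3 genes, none had separated groups.

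The cohorts were uneven, so the comparison was repeated within each, in a fit with a term for every group of each cohort. Cohort 1, with 2 separated knockout and 4 control wildtype animals, gave 0 called genes (0%) and 356 (5.06%) at an unadjusted p under 0.05. Cohort 2, with 8 and 4 animals, gave 0 (0%) and 134 (1.9%). All 20 named genes had the same sign in both cohorts, which their choice by the smallest p over both cohorts favours. Fgl2 differed by -0.45 in cohort 1 and -0.41 in cohort 2, Trpc4 by -0.22 and -0.28, and Ass1 by 0.21 and 0.30. Less even were Slit2, with -0.47 in cohort 1 and -0.18 in cohort 2, Neb, with -0.61 and -0.22, and Lrtm2, with 0.01 and 0.25. A test of the difference between cohorts called 0 genes (0%), with 248 (3.52%) at an unadjusted p under 0.05. DESeq2 and limma-voom called 0 for it, with 255 and 257. The vessel genes Sox18 and Eln had the smallest p in it, together with the heat-shock family gene Hspa12b. Sox18, a transcription factor of endothelium, was at 0.66 in cohort 1 and -0.28 in cohort 2 (difference -0.94 ± 0.225, adjusted p = 0.902 by edgeR), and Eln, the gene of elastin, at 0.84 and -0.31 (adjusted p = 0.902).

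In older animals the like comparison, 7 separated knockout against 7 control wildtype animals at P66, called 0 of 7131 genes (0%), with 387 (5.43%) at an unadjusted p under 0.05; DESeq2 and limma-voom called 0, with 393 and 399. Of the 20 genes named at P22, Fgl2 had a log2 fold change of -0.35 and Micalcl of -0.27 at P66, both with an unadjusted p under 0.05 and an adjusted p of 0.839 by edgeR. Others were near 0 there, with 0 for Ass1, 0.01 for Slit2 and 0.01 for Dchs2. Card9 differed by 0.38 at P22 and by -0.24 at P66, and Nostrin by -0.42 at P22 and by 0.15 at P66. The difference between the ages was 0.63 ± 0.171 for Card9 and -0.58 ± 0.192 for Nostrin, both with an adjusted p of 1. No gene was called for the difference between ages (0%), and 161 (2.26%) had an unadjusted p under 0.05, against 162 by DESeq2 and 152 by limma-voom with 0 called. Among lists, myelin genes were positive in 11 of 11 at P66 too, with a median of 0.18, and ribosomal protein genes in 34 of 35, with a median of 0.09, where 49.6% of all genes were positive. Glucocorticoid-induced genes were positive in 2 of 7 at P66 with a median of -0.17.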

How the data were processed

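Each library held hippocampal RNA of a single male mouse. Per the labels' protocols, the tissue was taken from frozen brain slices of about 1 mm. The tools named in the submitters' processing notes are cutadapt 1.16, FastQC 0.11.4, limma 3.34.9 and edgeR. Aligner, counter, use of strand and genome build are not named by the sources used here. Raw read counts for every gene were deposited by the authors, not normalized. The table as held ends on chromosome 8, and 1 broken record was left out. Of 9930 gene identifiers 9885 (99.55%) were found in GENCODE M21, 96.5% of these at the same position, so positions are given on GRCm38.

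Counts were fitted in R 4.3.3 with edgeR 4.0.16 over all 38 libraries of P22 (quasi-likelihood, group and cohort as terms, TMM, filterByExpr with minimum count 10 and minimum total 15), with Benjamini-Hochberg adjustment over the 7036 genes left. P66 and the difference between ages were fitted over all 69 libraries. CPM are per M counts of the held genes on TMM-scaled sizes. For genes of low level, such as G6pd2, Lao1 and Fgl2, counting error is not small beside the spread between animals. Named are the 10 genes with the smallest p in each direction at a mean log2 CPM of at least 0, since none was called, the 3 in each direction for the interaction, age and cohort, and in each list up to 4 with the smallest p and the most abundant. Cdh4, Ctnna2, Adipor1, Adipor2 and Prkaa2 were the tested genes of a fixed list for cadherin adhesion and adiponectin signalling. Its other genes were not tested. The members and lists were chosen with earlier results of these data known. No 2 libraries of a group among 73 pairs were alike within counting error (chi-square per degree of freedom 6.23 to 59.6). Litters are not named, so animals were treated as independent. Alternatives were DESeq2 1.42.0, voom of limma 3.58.1, RLE, other filters, covariates and sets of libraries.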

Additional observations from a re-analysis of the deposited data

Results flagged for a closer look

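Within groups of 8 to 10 libraries, 10 of 147 sets of values had 1 library far from the rest, measured as the gap to its nearest neighbour over the whole range of the group. Chance gives about 1 in 20. No set of separated knockout libraries was among them. The 11 separated wildtype libraries of P22 were not checked in this way.

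In control wildtype animals the Slit2 level of C2-85 was 120 CPM, with the nearest animal at 145 CPM, a gap of 0.738 of the range. Control wildtype C1-32 had 11.6 CPM of Dlx5, with the nearest at 8.69 CPM (0.559), and 25.8 CPM of Trh, the gene of thyrotropin-releasing hormone, with the nearest at 6.4 CPM (0.801).

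The other flags fell in control knockout animals, which enter the fit of all 38 P22 libraries and so its standard errors. C2-43 had 6.05 CPM of Dchs2, the nearest being 10.6 CPM (0.493, over the critical value by less than the last digit), and 16.2 CPM of Il6ra, the nearest being 19 CPM (0.495). C2-10 had 984 CPM of Mag against 705 CPM in the nearest animal (0.662), and C1-21 had 13.2 CPM of Serping1 against 19 CPM (0.599). C1-51 had 3.92 CPM of Gbx2 against 0.864 CPM (0.822) and a thalamus and habenula score 0.84 above the median of the P22 libraries against 0.19 (0.565). C1-4 had a choroid plexus score of -2 against -0.27 in the nearest animal (0.512). The cause of these gaps was not tested.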

How the results depend on the processing

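The count of called genes between separated knockout and control wildtype animals at P22 was 0 in each alternative run: DESeq2, limma-voom, RLE, no cohort term, no filter, a floor of 1 CPM in at least 8 libraries, each cohort alone, list scores as covariates, the 18 libraries alone, all 69 in 1 fit, an adjusted p under 0.1 and leaving out each library. The smallest adjusted p was 0.447, in cohort 1 alone. Genes at an unadjusted p under 0.05 numbered between 132 and 534 when 1 library was left out, 401 without the filter, 161 with choroid plexus and myelin scores and 128 with the thalamus and habenula score, which was added after seeing the data. The counts for the interaction, the single steps, P66, age and cohort were 0 too in every alternative run for them. None of the 20 named genes changed sign in 27 settings each, which their choice by the smallest p and the libraries shared between settings favour. List medians that moved by more than the spread between control wildtype animals were, in cohort 1 alone, microglia (0.08), endothelium (0.13), glutamate receptors (-0.15), serotonin and dopamine receptors (0.21) and neural stem cells (0.22), and in cohort 2 alone serotonin and dopamine receptors (-0.08); the cause was not tested. No paired analysis was made, because the labels name no pairs of animals. Some numbers in the labels recur in different groups of the same cohort, and they were not read as pairs. Depth limits genes under a mean log2 CPM of 0 most, with a median half-width of the 95% interval of 0.59 against 0.11 for genes over 6.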

Other observations

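Lists not described above also held no called gene in the comparison of separated knockout with control wildtype animals at P22. Genes of neural stem cells and newborn neurons were positive in 9 of 11 (median log2 fold change 0.09), among them Sox2, a factor of stem cells, at 0.10 ± 0.0801 (SE) and Stmn1, which loosens microtubules in young neurons, at 0.12 ± 0.0871. Markers of oligodendrocyte precursors were negative in 4 of 5, with Pdgfra, their growth factor receptor, at -0.10 ± 0.0552, beside the positive values of mature myelin genes. Astrocyte markers lay between -0.06 and 0.11, and Slc1a2, the main glutamate transporter of these cells, was at -0.06 ± 0.0528.

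Genes of the circadian clock were 6 positive and 4 negative of 10 (median 0.06), with Clock at -0.11 ± 0.0646. Immediate early genes, which follow recent neuronal activity, were 3 positive and 6 negative of 9, with Fosl2 at -0.17 ± 0.093 and Nr4a2 at 0.18 ± 0.147. Bdnf, the main neurotrophin of the hippocampus, was at 0.04 ± 0.0931. Nuclear genes of oxidative phosphorylation were positive in 29 of 36 at a median of 0.03. Of the stress axis, Oxtr, the oxytocin receptor, was at -0.21 ± 0.124, and Fkbp4, a partner of steroid receptors, at 0.08 ± 0.0512.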
